A study of Mus musculus with 32 samples.

Results

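Mural cells, the pericytes and smooth muscle cells that wrap brain vessels, and the fibroblasts of the leptomeninges were followed through 10 genes of the 24411 in the count table. The mural cell genes were Vtn, Pdgfrb, Rgs5, Acta2 and Myh11, and the leptomeningeal genes were Dcn, Lum, Fmod, Igf2 and Slc6a13. They were chosen by name, as rows of the table with these symbols, and each has 1 row. Brains came from 4 mice of the Sall1-CreER line and 4 mice of the Cx3cr1-CreER line, all C57BL/6 and all with the RPL22-HA allele (RiboTag). This allele adds a haemagglutinin (HA) tag to a ribosomal protein once Cre has acted, so that an anti-HA antibody pulls down ribosome-bound mRNA of recombined cells. Each line is named for the gene whose regulatory sequence drives the tamoxifen-activated Cre, Sall1 or Cx3cr1, and both genes are used to reach microglia. Every brain gave 4 samples: anti-HA precipitation directly from homogenate (HA), sorted microglia with anti-HA precipitation (SortIP), sorted microglia alone (Sort), and a homogenate precipitation with isotype control antibody in place of anti-HA (IgG). Every mouse had been given 5 mg tamoxifen by gavage 4 times between 4 and 6 weeks of age, so the IgG libraries come from the same Cre-carrying, treated animals as the HA libraries.

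Pericytes share a basement membrane with the endothelium and depend on platelet-derived growth factor signalling for their recruitment to vessels, whereas arterial and arteriolar smooth muscle cells contract through a set of actin and myosin genes. Leptomeningeal fibroblasts cover the brain surface, follow larger vessels inward, and secrete collagens and small leucine-rich proteoglycans. In homogenate the RNA of all these cells is present, while a sort for microglia is meant to leave it out.

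Sall1 HA libraries held 1894943 to 3027342 gene counts and Cx3cr1 HA libraries 286418 to 574671, while Sall1 IgG libraries held 704183 to 4047465 and Cx3cr1 IgG libraries 2200897 to 2470411. The 16 sorted libraries held 249881 to 1808789. Titles and descriptions of the 8 sorted Cx3cr1 libraries assign Sort and SortIP in opposite ways, and the groups used here follow the titles. A list of 10 microglial genes took 0.381% to 0.491% of gene counts in Sall1 HA and 6.205% to 7.08% in Cx3cr1 HA, against 0.0701% to 0.112% over both IgG groups. Levels are counts per 1e6 gene counts of a library (CPM), means carry the SD over n = 4 mice, and fold changes are log2 values with their SE from edgeR's quasi-likelihood test. Genes with a Benjamini-Hochberg adjusted p under 0.05 over all genes tested were called higher or lower. In bulk libraries such as these, fewer cells of a type and less RNA per cell cannot be told apart. HA and IgG libraries of a mouse come from homogenate of the same brain. A gene lower in HA than in IgG thus had a lower relative level in that precipitate, which measures neither cell number nor RNA per cell.

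Of the 10 genes, 9 passed the low-count filter in Sall1 HA against Sall1 IgG, and 5 were higher, 3 were lower and 1 was not called. Over all 11545 genes tested in this comparison 71.3% were called, 35.2% higher and 36.1% lower, so a called share near that level is no result about the 10. The 5 higher genes were Vtn, Pdgfrb, Fmod, Igf2 and Slc6a13, and the 3 lower ones were Rgs5, Acta2 and Myh11. The mural cell genes thus split, with the matrix gene and the receptor gene higher and the other 3 lower, and 3 of the 4 leptomeningeal genes tested were higher. The median log2 fold change of the 9 genes was 1.43, and that of all genes was -0.03. Where libraries were scaled by their totals alone the median of all genes was -0.44, and the 8 calls and their directions held under that scaling.

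Vtn encodes vitronectin, an adhesive matrix protein that brain pericytes secrete (mm9 chromosome 11, 78312622 to 78315827, plus strand). Its level was 304, 517, 334 and 312 CPM in the HA libraries of Sall1 mice 17, 21, 7 and 9, and 73.9, 86.7, 123.5 and 137.4 CPM in IgG from these mice. Every HA library lay above every IgG library, and mouse 21 was the highest HA library. The means were 367 ± 101.1 CPM in Sall1 HA and 105 ± 30.0 CPM in Sall1 IgG (SD, n = 4 each), a log2 fold change of 2.23 ± 0.21 (edgeR, adjusted p = 7.46e-08). Pdgfrb encodes the platelet-derived growth factor receptor of mural cells (chromosome 18, 61204804 to 61244721, plus strand). It stood at 39.9, 55.2, 41.7 and 42.4 CPM in Sall1 HA and at 20.1, 24.4, 17.04 and 25.2 CPM in Sall1 IgG, mice in the same order. The groups did not overlap, and the log2 fold change was 1.43 ± 0.21 (edgeR, adjusted p = 7.50e-06). With mouse as a replicate block and an adjustment for transcript length, the log2 fold change of Pdgfrb was larger, at 2.24.

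The other mural cell genes went the other way. Rgs5 encodes a regulator of G protein signalling that is abundant in pericytes (chromosome 1, 171585632 to 171625944, plus strand). It had 12.3, 22.5, 13.2 and 12.9 CPM in Sall1 HA and 39.8, 98.6, 98.0 and 80.5 CPM in Sall1 IgG. The highest HA value was thus below the lowest IgG value, and the log2 fold change was -1.92 ± 0.29 (edgeR, adjusted p = 1.30e-05). Acta2 encodes the smooth muscle actin of the arterial wall (chromosome 19, 34314826 to 34329863, minus strand). It had 3.29, 3.96, 2.64 and 2.57 CPM in Sall1 HA and 31.1, 62.9, 27.0 and 41.0 CPM in Sall1 IgG. These groups lay far apart, with a log2 fold change of -3.27 ± 0.35 (edgeR, adjusted p = 7.58e-08). Myh11 encodes the smooth muscle myosin heavy chain (chromosome 16, 14194620 to 14291501, minus strand). It was covered by 2, 3, 0 and 1 counts in Sall1 HA and by 53, 60, 16 and 164 counts in Sall1 IgG. That is 0.56 ± 0.44 CPM in Sall1 HA and 28.7 ± 10.4 CPM in Sall1 IgG (SD, n = 4 each), with a log2 fold change of -5.06 ± 0.65 (edgeR, adjusted p = 2.88e-08), which was -3.99 with the replicate block and length adjustment. The log2 fold changes of the mural cell genes thus ran from 2.23 for Vtn to -5.06 for Myh11.

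**Figure D1:**
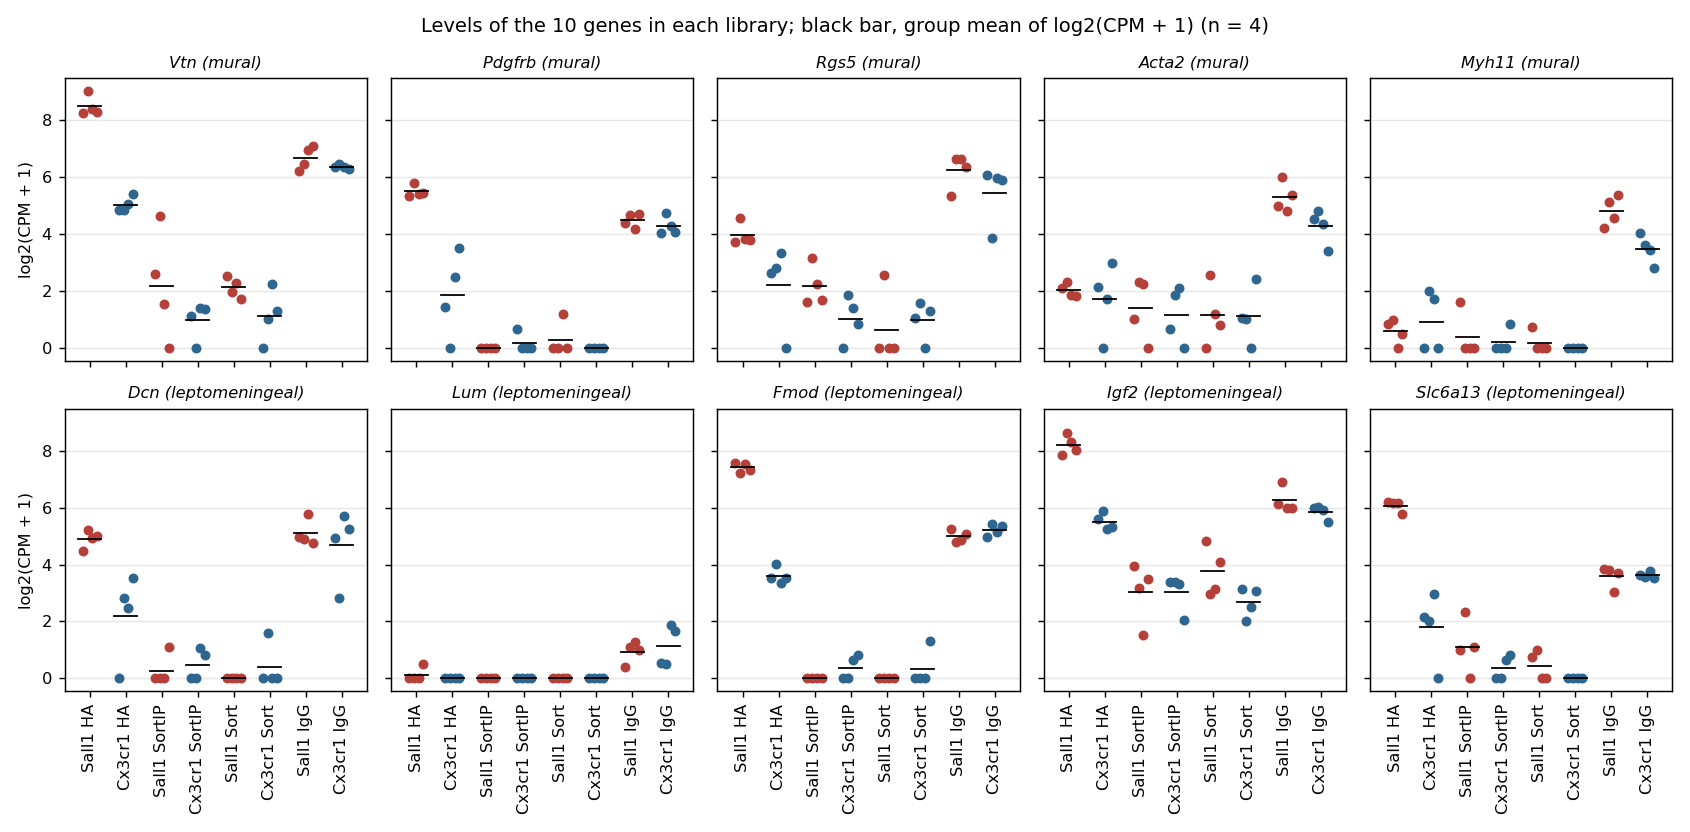
Levels of the 10 genes in all 32 libraries as log2(CPM + 1), 1 point per library, with Sall1 groups in red, Cx3cr1 groups in blue and a black bar at the mean of each group (n = 4). Vtn, Pdgfrb, Fmod, Igf2 and Slc6a13 are highest in Sall1 HA, whereas Rgs5, Acta2 and Myh11 are highest in the IgG groups. All 10 genes are lower in the sorted libraries than in the IgG libraries. Of the 16 sorted libraries, Igf2 is at 0 in none, Vtn in 3 and Acta2 in 4.

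Promoters of 4 genes are shown as a description of sequence. They belong to a mural cell gene that was higher in Sall1 HA (Vtn), to 2 that were lower (Rgs5 and Acta2) and to the leptomeningeal gene Fmod. HA and IgG are precipitates of the same homogenate, so their comparison does not measure transcription. A part of promoter sequence in these directions was not tested. RefSeq promoter windows (GRCm38.p6, 250 bases before to 50 after the start) matched 6 of the 10 genes. In the windows printed 5′ to 3′ below, capitals mark TATAAA or TATATA, searched on both strands.
Vtn, chr11:78498870-78499169, plus strand: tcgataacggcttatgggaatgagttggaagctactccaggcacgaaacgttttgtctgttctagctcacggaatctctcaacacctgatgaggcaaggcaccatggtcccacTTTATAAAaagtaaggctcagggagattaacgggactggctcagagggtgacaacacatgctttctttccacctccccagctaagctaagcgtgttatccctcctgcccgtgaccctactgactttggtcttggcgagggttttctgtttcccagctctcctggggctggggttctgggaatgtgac
Rgs5, chr1:169655251-169655550, plus strand: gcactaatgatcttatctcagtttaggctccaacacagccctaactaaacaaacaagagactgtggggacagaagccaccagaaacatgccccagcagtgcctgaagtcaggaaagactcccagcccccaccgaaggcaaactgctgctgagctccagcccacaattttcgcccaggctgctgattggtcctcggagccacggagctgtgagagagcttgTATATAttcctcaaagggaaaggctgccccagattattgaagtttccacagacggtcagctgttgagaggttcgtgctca
Acta2, chr19:34255324-34255623, minus strand: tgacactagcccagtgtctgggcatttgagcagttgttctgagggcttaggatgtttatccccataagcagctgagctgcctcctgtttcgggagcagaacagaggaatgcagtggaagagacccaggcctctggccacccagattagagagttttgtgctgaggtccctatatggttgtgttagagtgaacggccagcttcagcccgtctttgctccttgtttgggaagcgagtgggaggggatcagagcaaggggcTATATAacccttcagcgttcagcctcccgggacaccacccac
Fmod, chr1:134037004-134037303, plus strand: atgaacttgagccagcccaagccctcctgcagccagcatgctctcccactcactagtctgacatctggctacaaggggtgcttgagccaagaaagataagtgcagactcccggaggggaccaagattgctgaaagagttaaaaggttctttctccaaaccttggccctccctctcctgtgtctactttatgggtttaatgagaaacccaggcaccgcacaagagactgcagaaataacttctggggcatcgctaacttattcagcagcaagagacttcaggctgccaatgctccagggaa
In Vtn the capitals hold TATAAA on both strands, in overlapping copies before the start. TATATA, which reads the same on both strands, begins at position -30 from the start in Rgs5 and at base 9 after the start in Acta2, and the Fmod window holds neither. Of the 32851 promoter windows of 27025 genes, 13.62% hold TATAAA and 5.67% hold TATATA. The CArG box, the site of serum response factor, was also searched by its strict consensus of CC, 6 bases of A or T, and GG. Of all windows 1.63% hold this strict form, and none of these 4 does. A window of Igf2 that is not printed holds it, beginning at position -155. Looser forms were not searched, so the near forms given next for Acta2 cannot be compared with other windows. The Acta2 window holds ccctatatgg and ccttgtttgg, which each depart from the strict form by a single base. A match describes letters in the window and not a bound site.

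Among the leptomeningeal genes, Fmod, which encodes the small leucine-rich proteoglycan fibromodulin (chromosome 1, 135934092 to 135944854, plus strand), had 188, 149, 183 and 158 CPM in the 4 Sall1 HA libraries and 37.1, 26.6, 28.4 and 32.9 CPM in the 4 Sall1 IgG libraries. The groups did not overlap, and the means were 169 ± 19.0 CPM in Sall1 HA and 31.3 ± 4.72 CPM in Sall1 IgG (SD, n = 4 each). Its log2 fold change was 2.82 ± 0.17 (edgeR, adjusted p = 3.62e-10). Slc6a13 encodes a GABA and taurine transporter of the leptomeninges (chromosome 6, 121250314 to 121287736, plus strand). It had 71.6, 70.4, 69.7 and 54.0 CPM in Sall1 HA and 13.4, 13.03, 7.10 and 11.9 CPM in Sall1 IgG. All HA libraries were above all IgG libraries, with a log2 fold change of 2.88 ± 0.22 (edgeR, adjusted p = 3.49e-09). Igf2 encodes a growth factor made by the leptomeninges and the choroid plexus in the adult brain (chromosome 7, 149836673 to 149843401, minus strand). It had 228, 392, 315 and 258 CPM in Sall1 HA and 68.3, 119.5, 62.5 and 62.8 CPM in Sall1 IgG. Mouse 21 was the highest in both groups, which did not overlap, and the log2 fold change was 2.33 ± 0.23 (edgeR, adjusted p = 1.65e-07). The row of the microRNA gene Mir483 overlaps that of Igf2, and no other row overlaps any of the 10.

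Both remaining leptomeningeal genes encode related proteoglycans of the collagen matrix and neither was called. Dcn, decorin (chromosome 10, 96942134 to 96980797, plus strand), had 20.98, 36.3, 29.6 and 30.8 CPM in Sall1 HA and 30.4, 28.9, 54.0 and 25.7 CPM in Sall1 IgG. The groups overlapped, and the log2 fold change of 0.25 ± 0.26 did not pass (edgeR, adjusted p = 0.397). It was -0.16 when libraries were scaled by their totals alone and -0.24 with the replicate block and length adjustment. Lum, lumican (chromosome 10, 97028135 to 97035337, plus strand), was covered by 1 count over the 4 Sall1 HA libraries and 8 counts over the 4 Sall1 IgG libraries, and it passed the filter in no comparison. A difference in Lum was not detectable at this depth.

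The order of levels within a group was read per length, as CPM per kilobase of transcript. In Sall1 HA it ran Vtn (211), Igf2 (80.6), Fmod (59.4), Slc6a13 (31.1), Dcn (15.7), Pdgfrb (8.32), Rgs5 (3.72), Acta2 (1.22), Myh11 (0.0851) and Lum (0.0517). Neighbours in this order had ranges over the 4 libraries that did not overlap, except Igf2 with Fmod and Myh11 with Lum. In Sall1 IgG the same levels per kilobase were 60.7 for Vtn, 21.1 for Igf2, 19.4 for Rgs5, 18.5 for Dcn, 15.8 for Acta2 and 10.95 for Fmod, followed by Slc6a13 at 5.32, Myh11 at 4.36, Pdgfrb at 4.02 and Lum at 0.468. Vtn led both groups, and from Igf2 to Fmod each neighbour overlapped the next in IgG. Ratios of counts within a library do not depend on scaling between libraries. Pdgfrb over Rgs5 was 2.46 to 3.30 in Sall1 HA and 0.174 to 0.504 in Sall1 IgG, and Vtn over Rgs5 was 23.0 to 25.3 in Sall1 HA and 0.879 to 1.86 in Sall1 IgG. Fmod over Dcn was 4.10 to 8.96 in Sall1 HA and 0.526 to 1.28 in Sall1 IgG. Each of the 3 ratios was thus higher in every Sall1 HA library than in any Sall1 IgG library. Each pair set a gene called higher in these libraries over a gene called lower or not called. The ratios therefore restate those calls and are no separate support for them.

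**Figure D2:**
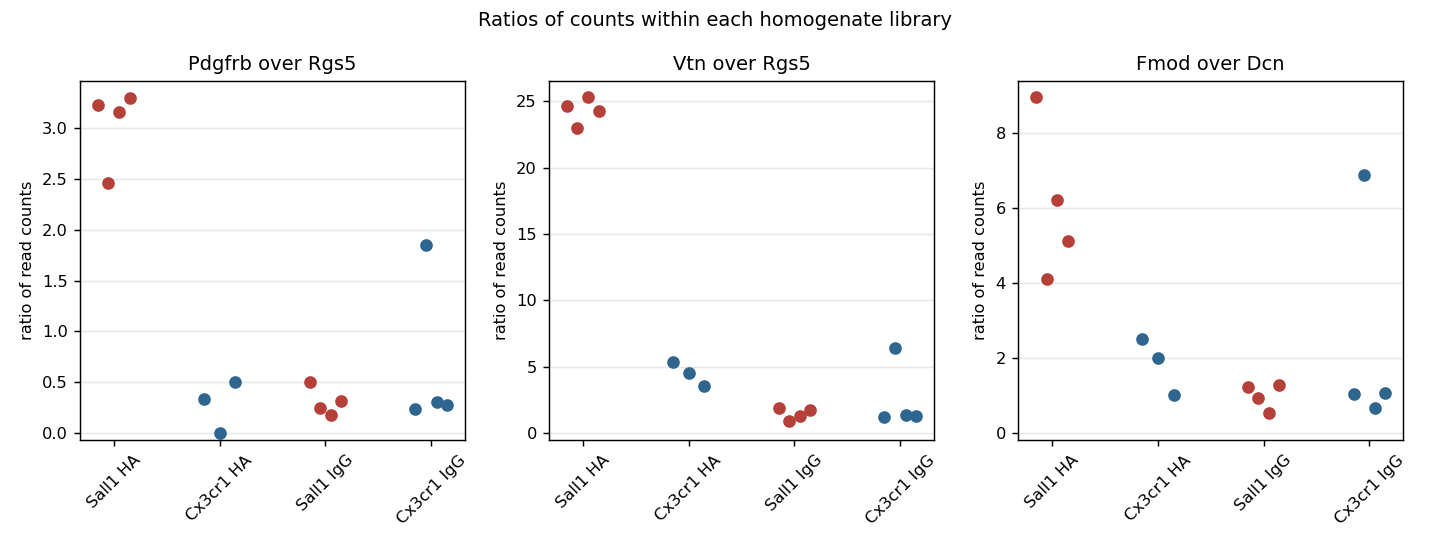
Ratios of read counts of Pdgfrb over Rgs5, Vtn over Rgs5 and Fmod over Dcn in each homogenate library, 1 point per library, for Sall1 HA, Cx3cr1 HA, Sall1 IgG and Cx3cr1 IgG; a library with a denominator of 0 has no point. Sall1 HA points lie above those of Sall1 IgG in all 3 panels, and mouse 2 is the high point of Cx3cr1 IgG in each.

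Other genes of these cell types were read from 2 further lists. Of 18 other mural cell genes, 12 were tested in Sall1 HA against Sall1 IgG, with 5 higher, 3 lower and a median log2 fold change of -0.11. The higher ones were Heyl, a Notch target (2.58 ± 0.34), Kcnj8, a potassium channel subunit of pericytes (2.28 ± 0.35), Higd1b (2.04 ± 0.31), Ndufa4l2 (0.85 ± 0.37) and Notch3, a receptor of mural cells (0.76 ± 0.26). The lower ones were Tagln, an actin-binding protein of smooth muscle (-3.72 ± 0.38), the tropomyosin gene Tpm2 (-0.92 ± 0.25) and the desmin gene Des (-0.86 ± 0.29). Myl9, a myosin light chain of smooth muscle, was among the 4 genes not called (0.00 ± 0.25, edgeR, adjusted p = 0.998), so not every contractile gene was lower. With the replicate block and length adjustment Higd1b was not called (0.64, edgeR, adjusted p = 0.0688), while Heyl was at 3.24 and Tagln at -4.40.

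Of 22 other fibroblast and leptomeningeal genes, 14 were tested in the same comparison, with 11 higher, 3 lower and a median log2 fold change of 1.41. The higher ones included Gjb2, a gap junction gene (3.09 ± 0.26), Serping1, which encodes the C1 inhibitor (2.90 ± 0.24), Slc22a6, an organic anion transporter (2.56 ± 0.29), the transcription factor gene Osr1 (2.34 ± 0.27) and the proteoglycan gene Bgn (1.99 ± 0.18). The collagen genes Col1a1 (1.03 ± 0.23) and Col1a2 (0.64 ± 0.25) were higher too. The lower ones were Cemip (-3.03 ± 0.56), Nov (-1.38 ± 0.27) and Mgp, the matrix Gla protein gene (-0.69 ± 0.22). With the replicate block and length adjustment Mgp was at -2.21 and Cemip at -1.92. Beside these, endothelial genes took 0.00322% to 0.00657% of gene counts in Sall1 HA and 0.0249% to 0.0589% in Sall1 IgG, with 8 of 9 tested genes lower and Tek and Slco1a4 at 0 in every Sall1 HA library. Ependymal genes took 0.0211% to 0.0292% in Sall1 HA and 0.00472% to 0.0127% in Sall1 IgG, and astrocyte genes 0.570% to 0.852% in Sall1 HA and 0.295% to 0.317% in Sall1 IgG. Choroid plexus genes took 0.269% to 0.403% in Sall1 HA and 0.0809% to 0.149% in Sall1 IgG, with 2 of 5 tested genes higher and 2 lower. Ttr, the transthyretin gene of the choroid plexus, made up most of the last sum, with means of 3259 CPM in Sall1 HA and 1074 CPM in Sall1 IgG. The part of other cell types in the levels of the 10 genes, Igf2 included, was not tested.

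**Figure D3:**
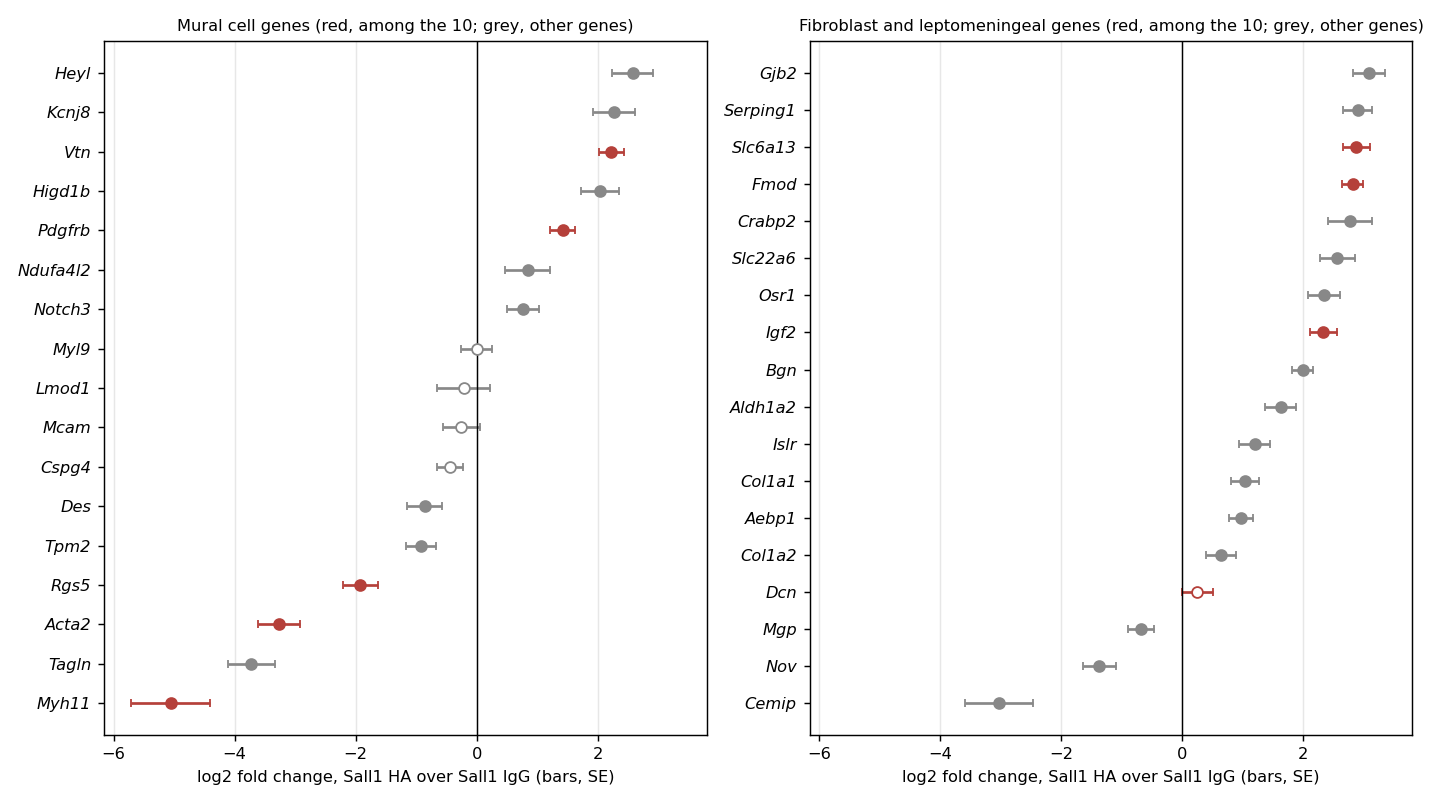
Log2 fold changes in Sall1 HA over Sall1 IgG with their SE for the tested mural cell genes (left) and fibroblast and leptomeningeal genes (right), with those among the 10 in red and the genes of the further lists in grey. Filled points passed an adjusted p of 0.05; the left panel runs from 2.58 for Heyl to -5.06 for Myh11, and the right panel from 3.09 for Gjb2 to -3.03 for Cemip.

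In Cx3cr1 HA against Cx3cr1 IgG, 8 of the 10 genes were tested, 6 were lower, 0 were higher and 2 were not called. Over all 10021 genes tested 64.5% were called, 28.6% higher and 36% lower. The median log2 fold change of the 8 genes was -1.61, and that of all genes was -0.28, or -0.70 with libraries scaled by their totals alone. Counts were few, with at most 27 for any of the 10 genes in any Cx3cr1 HA library. Vtn had 27.8, 27.5, 32.1 and 41.9 CPM in the HA libraries of Cx3cr1 mice 1 to 4, against 81.3, 87.8, 81.6 and 77.7 CPM in Cx3cr1 IgG. The groups did not overlap, and the log2 fold change was -0.97 ± 0.24 (edgeR, adjusted p = 0.00196). Fmod had 10.4, 15.3, 9.18 and 10.5 CPM in Cx3cr1 HA and 30.4, 41.7, 34.1 and 39.5 CPM in Cx3cr1 IgG, again without overlap, a log2 fold change of -1.30 ± 0.35 (edgeR, adjusted p = 0.00290). Igf2 had 47.0, 58.1, 36.7 and 38.4 CPM in Cx3cr1 HA and 61.8, 63.1, 59.2 and 43.8 CPM in Cx3cr1 IgG. These ranges overlapped and no difference was called (0.06 ± 0.25, edgeR, adjusted p = 0.828).

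Rgs5 had 3, 2, 4 and 0 counts in Cx3cr1 HA and 146, 34, 137 and 137 counts in Cx3cr1 IgG, which is 5.13 ± 3.82 CPM in HA and 50.3 ± 24.5 CPM in IgG (SD, n = 4 each). It was lower by a log2 fold change of -2.77 ± 0.75 (edgeR, adjusted p = 0.00205), and mouse 2 was the lowest IgG library. Acta2 had 2, 0, 1 and 2 counts in Cx3cr1 HA and 49, 67, 43 and 22 counts in Cx3cr1 IgG, a log2 fold change of -2.24 ± 0.73 (edgeR, adjusted p = 0.00477). Pdgfrb had 1, 0, 2 and 3 counts in Cx3cr1 HA and 34, 63, 41 and 37 counts in Cx3cr1 IgG. It was lower by -1.91 ± 0.65 (edgeR, adjusted p = 0.00772), a call that was lost without HA mouse 1 (adjusted p = 0.0546) and with the replicate block and length adjustment (-1.05, adjusted p = 0.140); without HA mouse 4 its log2 fold change was -2.64. Dcn had 0, 2, 2 and 3 counts in Cx3cr1 HA and 65, 15, 113 and 86 counts in Cx3cr1 IgG, and the groups overlapped in CPM. It was lower by -2.38 ± 1.00 (edgeR, adjusted p = 0.0306), a call lost without HA mouse 1, 2 or 3 (adjusted p from 0.0525 to 0.0844), with a log2 fold change of -1.78 without mouse 1. Of the 8 fits without 1 library, only 4 tested Pdgfrb and Slc6a13, and only 5 tested Rgs5, Acta2 and Dcn. Slc6a13 had 2, 1, 3 and 0 counts in Cx3cr1 HA and 25, 27, 28 and 24 counts in Cx3cr1 IgG and did not pass (-1.21 ± 0.58, edgeR, adjusted p = 0.0525), but it did when libraries were scaled by their totals alone (-1.62, adjusted p = 0.0100). Myh11, with 2 counts over Cx3cr1 HA and 98 over Cx3cr1 IgG, and Lum, with 0 over Cx3cr1 HA and 13 over Cx3cr1 IgG, were not tested. The limit that 0 counts of Lum allow in Cx3cr1 HA is 3 counts over the group, or 1.85 CPM, above the 1.41 CPM of the pooled IgG libraries.

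The further lists in the Cx3cr1 line gave 6 lower of 6 tested mural cell genes (median -2.62), among them Cspg4, which encodes the NG2 proteoglycan of pericytes (-2.79 ± 0.55), Tagln (-4.03 ± 1.09) and Notch3 (-3.08 ± 1.04). Of the other fibroblast and leptomeningeal genes 7 of 10 were lower and 0 were higher (median -1.51), including Mgp (-1.54 ± 0.36), Col1a2 (-2.66 ± 0.82) and Aebp1 (-1.53 ± 0.42). Endothelial genes took 0.00275% to 0.00609% of gene counts in Cx3cr1 HA and 0.0166% to 0.0322% in Cx3cr1 IgG, and choroid plexus genes took 0.0526% to 0.0701% in Cx3cr1 HA and 0.0800% to 0.103% in Cx3cr1 IgG. Their part in these results was not tested. With the replicate block and length adjustment the Notch3 call was lost (-1.98, edgeR, adjusted p = 0.0520), and Cspg4 was at -1.52, Mgp at -2.43 and Col1a2 at -1.94. Without Cx3cr1 HA mouse 1 the log2 fold change of Col1a2 was -3.57, without mouse 3 that of Aebp1 was -2.32, and without mouse 4 those of Tagln and Notch3 were -4.71 and -3.77.

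**Figure D4:**
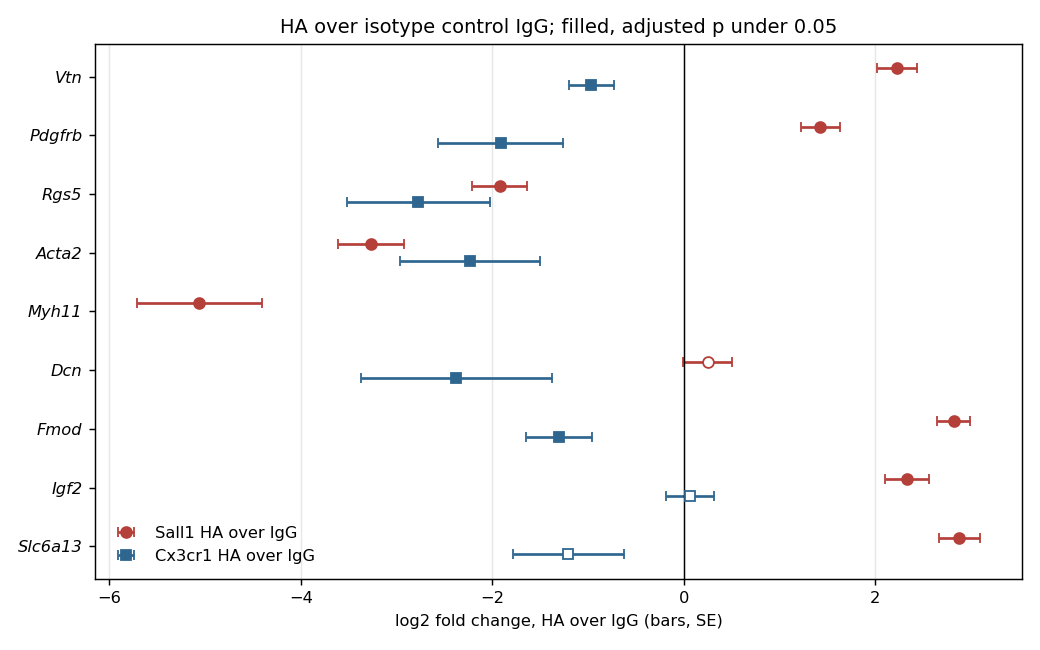
Log2 fold changes of HA over IgG with their SE for the 9 genes tested in at least 1 line, with Sall1 as red circles and Cx3cr1 as blue squares; filled symbols passed an adjusted p of 0.05. Vtn, Pdgfrb, Fmod, Igf2 and Slc6a13 lie right of 0 in Sall1 and, apart from Igf2 at 0.06, left of 0 in Cx3cr1, while Rgs5 and Acta2 lie left of 0 in both.

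Whether HA over IgG differed between the lines was asked with an interaction term, fitted on the 16 homogenate libraries. HA over IgG was higher in Sall1 than in Cx3cr1 for 6 of 9 genes tested. Of all 12308 genes tested 32.2% were called, 18.5% of the 12308 with a higher and 13.7% with a lower enrichment in Sall1. Fmod differed by 4.09 ± 0.36 on the log2 scale (edgeR, adjusted p = 9.79e-10), Slc6a13 by 4.05 ± 0.57 (adjusted p = 5.22e-07) and Pdgfrb by 3.31 ± 0.62 (adjusted p = 3.39e-05). Vtn differed by 3.15 ± 0.32 (adjusted p = 3.64e-08), Igf2 by 2.22 ± 0.35 (adjusted p = 2.24e-05) and Dcn by 2.56 ± 0.99 (adjusted p = 0.0346). All 4 leptomeningeal genes tested and 2 of the 5 mural cell genes thus differed. The call of Dcn was lost without Cx3cr1 HA mouse 1, 2 or 3, Cx3cr1 IgG mouse 3, Sall1 HA mouse 21 or Sall1 IgG mouse 9 (adjusted p up to 0.107), and without the low-count filter (adjusted p = 0.0545). No difference was called for Rgs5 (0.79 ± 0.86, edgeR, adjusted p = 0.514), Acta2 (-1.06 ± 0.81, adjusted p = 0.372) or Myh11 (-2.42 ± 1.23, adjusted p = 0.186), which had 0 to 4 counts per Cx3cr1 HA library. Of the other lists, 7 of 11 mural cell genes, such as Notch3 (3.84 ± 1.05), and 10 of 15 fibroblast and leptomeningeal genes, such as Osr1 (4.19 ± 0.72), had a higher enrichment in Sall1, and 0 had a lower one. Genes of some other brain cells also had a higher enrichment in Sall1: 8 of 8 astrocyte genes tested (median difference 3.23), 6 of 6 oligodendrocyte genes (3.05) and 4 of 6 ependymal genes (3.04). Among the remaining lists, 2 of 7 choroid plexus genes (2.04) and 1 of 7 neuron genes (0.35) were higher. Of 11 endothelial genes 1 was higher and 3 were lower (-1.70). All 10 microglial genes (-3.42) and all 6 border macrophage genes tested (-5.69) were lower. The same median was 2.56 for the 9 genes tested and 0.15 for all genes, and the part of these cell types in the differences was not tested. Without Cx3cr1 HA mouse 4 the difference was 4.04 for Pdgfrb and 4.53 for Notch3.

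Sall1 HA was also set directly against Cx3cr1 HA, where 7 of the 10 genes were tested and all 7 were higher, beside 27.2% higher and 25.7% lower, or 52.9% called, of all 9092 genes. The log2 fold changes were 3.95 ± 0.58 for Slc6a13, 3.73 ± 0.33 for Fmod, 3.38 ± 0.62 for Pdgfrb, 3.34 ± 0.27 for Vtn, 2.54 ± 0.61 for Dcn and 2.54 ± 0.24 for Igf2, with adjusted p (edgeR) of at most 0.000104. Rgs5 was higher by 1.28 ± 0.55 (edgeR, adjusted p = 0.0329), a call lost without Cx3cr1 HA mouse 1, 2 or 4 (adjusted p from 0.0512 to 0.0916). Rgs5 passed the filter in only 4 of the 8 fits without 1 library, and its call held in 1 of them. Acta2 was at 3.12 ± 0.65 CPM in Sall1 HA and 3.19 ± 2.91 CPM in Cx3cr1 HA (SD, n = 4 each) and was not tested. This comparison and the interaction share the HA libraries and are not independent of each other. Without Cx3cr1 HA mouse 4 the log2 fold change of Pdgfrb was 4.11, and without Cx3cr1 HA mouse 1 that of Dcn was 1.95.

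The isotype controls of the lines were compared to see how alike the background was. None of the 9 genes tested was called in Sall1 IgG against Cx3cr1 IgG, with edgeR or with DESeq2, while 0.00863% of 11593 genes were called by edgeR. With no adjustment, 2 of the 10 genes (Myh11 and Acta2) had a p under 0.05, as did 3.17% of all genes. Myh11 was at 28.7 ± 10.4 CPM in Sall1 IgG and 10.7 ± 3.87 CPM in Cx3cr1 IgG without overlap, a log2 fold change of 1.42 ± 0.33, and Acta2 was at 40.5 ± 16.04 CPM in Sall1 IgG and 19.6 ± 7.41 CPM in Cx3cr1 IgG, a log2 fold change of 1.03 ± 0.34. Both had an adjusted p of 1.000 (edgeR). Fmod, at 31.3 ± 4.72 CPM in Sall1 IgG and 36.4 ± 5.11 CPM in Cx3cr1 IgG, and Slc6a13, at 11.3 ± 2.90 CPM in Sall1 IgG and 11.3 ± 0.91 CPM in Cx3cr1 IgG, had overlapping groups (SD, n = 4 each).

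Sorted libraries held few reads of these genes. Summed over the 16 sorted libraries of both lines there were 41 counts of Vtn, 25 of Acta2, 23 of Rgs5, 7 of Slc6a13, 6 of Dcn, 4 of Myh11, 3 of Fmod, 2 of Pdgfrb and 0 of Lum. Igf2 was the exception, with 163 counts and at least 1 in each library. All 7 genes tested in Cx3cr1 titled Sort against Cx3cr1 IgG were lower, as were 40.1% of 11180 genes (33.7% were higher and 73.8% called in all), and all 8 tested in Sall1 Sort against Sall1 IgG were lower, as were 41.1% of 11291 genes (37.1% were higher and 78.2% called in all). Vtn was lower by -5.53 ± 0.59 in Cx3cr1 and -4.87 ± 0.39 in Sall1 (edgeR, adjusted p = 7.49e-09 and 5.15e-11). Against a floor of 3 counts over a group at 0, Pdgfrb was at least 23.0-fold lower in Cx3cr1 titled Sort than in Cx3cr1 IgG, and Fmod was at least 49.5-fold and Dcn at least 45.2-fold lower in Sall1 Sort than in Sall1 IgG. The log2 fold change of Igf2 was -3.29 ± 0.36 in Cx3cr1 titled Sort and -2.35 ± 0.37 in Sall1 Sort (edgeR, adjusted p = 1.88e-07 and 2.00e-05). Without the titled Sort library of Cx3cr1 mouse 3 the log2 fold change of Vtn was -6.68. For Vtn, Cx3cr1 Sort against IgG gave a log2 fold change of -6.17 when the sorted libraries were grouped by their descriptions. Without the Sort library of Sall1 mouse 17 the log2 fold change of Igf2 was -2.99.

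In Sall1 Sort libraries Igf2 had 27.5, 6.85, 7.88 and 16.1 CPM for mice 17, 21, 7 and 9, and Ttr had 4061, 1367, 1599 and 2462 CPM in the same libraries. The libraries of mice 17 and 9 were thus the highest for both genes. The 2 genes did not share an order in Sall1 HA or Sall1 SortIP. In Sall1 HA, mouse 21 was the highest for Igf2 (392 CPM) and the lowest for Ttr (2645 CPM, against 2844, 3557 and 3992 CPM in mice 17, 7 and 9). In Sall1 SortIP, mouse 21 was the highest for Ttr (3890 CPM), while its 8.004 CPM of Igf2 lay below mice 17 and 9 (14.3 and 10.2 CPM). These Igf2 values rest on 2 counts in mouse 21, 14 in mouse 17 and 9 in mouse 9, so their order is uncertain. Choroid plexus genes took 0.138% to 0.413% of gene counts in Sall1 Sort and 0.0809% to 0.149% in Sall1 IgG; their part in the Igf2 level was not tested.

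Direct precipitation was then set against precipitation after sorting. All 7 genes tested in Sall1 HA against Sall1 SortIP were higher in HA, beside 42.4% of 10494 genes higher, 37.8% lower and 80.2% called in all. Vtn was higher by 6.41 ± 0.71, Slc6a13 by 5.90 ± 0.80, Igf2 by 5.08 ± 0.35, Dcn by 6.13 ± 1.43 and Rgs5 by 2.44 ± 0.56 (edgeR, adjusted p at most 1.49e-05). The log2 fold change of Dcn was 8.62 without the SortIP library of mouse 9, which held the only Dcn count of that group, so this fitted value has no count behind it in SortIP. That of Vtn was 7.31 without SortIP mouse 21, at 24.0 CPM the highest of its group, and 5.80 without SortIP mouse 9. Fmod was at least 147-fold and Pdgfrb at least 40.1-fold higher in Sall1 HA than in Sall1 SortIP, which held 0 counts of either. In Cx3cr1 HA against titled SortIP only Vtn (4.73 ± 0.58) and Igf2 (2.75 ± 0.34) passed the filter, and both were higher (edgeR, adjusted p = 5.76e-09 and 2.62e-07), beside 32.6% of 8198 genes higher, 37.5% lower and 70.1% called in all. The HA and SortIP libraries also differ in whether the tissue was digested and sorted, so that step and the sorted population cannot be told apart.

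Across the 16 homogenate libraries the 10 genes fell into patterns that are given as a description, since these libraries share 4 groups and their depth. Spearman's rho of CPM was 0.935 between Vtn and Pdgfrb and 0.906 between Pdgfrb and Igf2, and it was 0.844 between Rgs5 and Myh11 and 0.768 between Rgs5 and Acta2. It was only 0.368 between Vtn and Rgs5 and 0.018 between Vtn and Myh11, although all are mural cell genes. Among 11220 genes with a mean of at least 5 CPM, those whose CPM was most like the mean standardized log2(CPM + 1) of the 5 mural cell genes were Fbln2 (0.963), Vim (0.959), Gramd1b (0.956) and Mta3 (0.950). Most like the same mean of the 5 leptomeningeal genes were Scd2 (0.965), Dkk3 (0.959), Entpd5 (0.947), Trp53bp2 (0.941) and Paqr8 (0.941).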

How the data were processed

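The members and the gene lists were chosen with earlier results of these data known. The authors deposited 1 table of unnormalized exon read counts, with 24411 genes and 32 libraries. HISAT 0.1.5, HOMER, bcl2fastq and the build mm9 are named in the submitters' processing notes; the strand setting and the treatment of multiply mapped reads are not given in the sources used here. Columns were matched to samples by description, and groups follow titles. The replicate is the mouse: libraries with the same number within a line come from the same animal, per the series' design. Deviations from group means of libraries of 1 mouse correlated between -0.106 and 0.221 (median 0.0392, 48 pairs). Those of different mice of a line correlated between -0.206 and 0.161 (median -0.0126, 144 pairs). A correlation over 0.1 was found in 11 of the 48 and in 3 of the 144 pairs. Every pair of libraries of a group differed by more than sampling noise (chi-square over its degrees of freedom, 1.58 to 22.5).

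Each comparison was fitted on the libraries of its own groups with edgeR 4.0.16 in R 4.3.3 (TMM scaling, default low-count filter with minimum count 10, robust quasi-likelihood test, Benjamini-Hochberg adjustment over all genes tested). The scripts were tested on simulated data. Alternatives were other scalings, DESeq2 1.42.0, no filter, all 8 groups in one fit, mouse as a replicate block with and without a length adjustment, the described groups of the sorted Cx3cr1 libraries, and leaving out each library. Named genes outside the 10 are, per list and comparison, the 3 called genes with the smallest adjusted p in each direction; other genes of the lists (Ndufa4l2, Notch3, Myl9, Slc22a6, Osr1, Col1a1 and Col1a2 in Sall1 HA against IgG), Ttr, Tek and Slco1a4 were named after their values were seen. The 5 genes most like each kind in pattern were taken by rank, and not all items are reported here. Copies from PCR were not separated, so bounds against the floor of 3 counts cover counting error only. Total counts per library are given as the depth.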

Additional observations from a re-analysis of the deposited data

Results flagged for a closer look

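In 18 of 68 gene and group combinations 1 library stood apart from the other 3 by Dixon's gap test at the 95% level; chance gives about 1 in 20. Of Sall1 HA, mouse 21 stood apart for Vtn (517 CPM), Pdgfrb (55.2 CPM) and Rgs5 (22.5 CPM), each the highest, and mouse 9 was the lowest for Slc6a13 (54.0 CPM). Among the IgG libraries, Rgs5 was low in Cx3cr1 mouse 2 (13.8 CPM), Dcn was high in Sall1 mouse 7 (54.0 CPM) and Igf2 was high in Sall1 mouse 21 (119.5 CPM). Igf2 was low in Cx3cr1 titled SortIP mouse 4 (3.13 CPM, 4 counts).

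The other 10 rest on 1 to 5 counts in a library whose 3 companions had 0, and the test flags every such group. For Pdgfrb these were Cx3cr1 titled SortIP mouse 1 (0.597 CPM) and Sall1 Sort mouse 7 (1.31 CPM). For Rgs5 it was Sall1 Sort mouse 21 (4.89 CPM). For Myh11 they were Cx3cr1 titled SortIP mouse 4 (0.783 CPM), Sall1 Sort mouse 17 (0.688 CPM) and Sall1 SortIP mouse 17 (2.04 CPM). For Dcn they were Cx3cr1 titled Sort mouse 2 (2.03 CPM) and Sall1 SortIP mouse 9 (1.13 CPM), for Lum it was Sall1 HA mouse 9 (0.428 CPM), and for Fmod it was Cx3cr1 titled Sort mouse 4 (1.48 CPM).

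The enrichment of HA over IgG differed between the Sall1 and Cx3cr1 lines, by the interaction test with edgeR, for Fmod (4.09), Slc6a13 (4.05), Pdgfrb (3.31), Vtn (3.15), Dcn (2.56) and Igf2 (2.22), all on the log2 scale and higher in Sall1.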

How the results depend on the processing

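Over the other scalings, tools, filters and fits, 780 of 791 values kept their direction and their side of the threshold, as did 979 of 1000 values with 1 library left out. Values were counted only where the gene still passed the filter, so calls lost because a gene was no longer tested are not included. The count of called genes among the 10 was 8 in Sall1 HA against IgG in every fit without 1 library and also with mouse as a replicate block; in Cx3cr1 HA against IgG it was 6 with the block and 2 to 7 without 1 library. It was 2 without Cx3cr1 IgG mouse 1 or 3 and 3 without mouse 4, where 3, 3 and 4 of the 10 genes passed the filter. The replicate block on its own changed no call of the 10 genes. In Cx3cr1 HA against titled SortIP, 7 in place of 2 genes were higher without the filter and with all 8 groups in one fit. Between the IgG groups, the number of all genes called was 2 with DESeq2 and 0 to 1 without 1 library (0 without Cx3cr1 IgG mouse 1). Igf2 in Cx3cr1 HA against IgG was -0.36 with libraries scaled by totals alone, -0.022 without the filter, -0.35 with all 8 groups in one fit and -0.082 to 0.16 without 1 library. Dcn in Sall1 HA against IgG was -0.16 with totals alone and -0.24 with the replicate block and length adjustment. Between the IgG groups, Dcn was -0.26 to 0.46 and Slc6a13 -0.058 to 0.15 without 1 library. The causes were not tested. With scaling by totals alone the split of called genes over the whole table moved to 2869 higher and 5427 lower in Sall1 HA against IgG (4064 and 4166 with TMM) and to 2102 and 4749 in Cx3cr1 HA against IgG (2862 and 3603). With all 8 groups in one fit it was 2464 and 5746 in Cx3cr1 HA against IgG, 3209 and 1427 in the interaction (2277 and 1688) and 3847 and 1897 in Sall1 HA against Cx3cr1 HA (2471 and 2337). With the replicate block and length adjustment the interaction had 1736 higher and 2260 lower. Depth limits Cx3cr1 HA, where 1 count is worth at least 1.74 CPM.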
